A study of Mus musculus with 30 samples.

Results

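The genes described here are 9 that build, dress or remodel triglyceride-rich lipoproteins in the mouse: Apob, Mttp, Tm6sf2, Apoa1, Apoa4, Apoa5, Apoc2, Apoc3 and Pltp. They were chosen by name. Each gene was read from the probe set that carries its symbol alone and has the highest mean over all 30 arrays. All 9 were on the array, among 17097 genes measured in the same way.

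Hepatocytes package triglyceride into very low density lipoprotein (VLDL) around a single molecule of apolipoprotein B, which is lipidated in the endoplasmic reticulum by the microsomal triglyceride transfer protein and receives further lipid before secretion. Smaller, exchangeable apolipoproteins then ride on the particle and set how fast lipoprotein lipase empties it in the blood. VLDL export is one of the routes by which liver disposes of fat, and it needs phosphatidylcholine, which is made from choline, for the particle's surface.

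Liver RNA was measured on 1 Affymetrix HT MG-430 array per mouse. The healthy group was 5 mice on control chow, labelled as given vehicle. The remaining mice were fed CD-HFD (high in fat and lacking choline), used as a model of steatohepatitis with hepatocellular carcinoma (HCC). They comprised 5 vehicle mice that did not develop HCC and fibrosis, 4 vehicle mice that did, 10 mice given the anti-inflammatory drug sulindac prophylactically and 6 given the antiplatelet drugs aspirin and clopidogrel prophylactically. The tissue was fresh-frozen liver outside tumours. The labels used here state no strain, age, sex, dose, duration or batch, and mice are named as in their titles, or by the number alone for sulindac and aspirin/clopidogrel mice. In whole liver, fewer cells of a type and less RNA per cell cannot be told apart.

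Hepatocyte markers were bright in every mouse: the mean log2 intensity of 8 measured markers ran from 12.57 to 12.86. Of 5 measured enterocyte markers, Vil1, Alpi, Cdx2 and Krt20 stayed at a log2 intensity of at most 4.86, below the median gene mean of 4.9, while Fabp2, which liver also expresses, averaged 11.48. Array medians ran from 24.1 to 24.6 intensity units, and correlations between pairs of arrays from 0.974 to 0.996.

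A total of 8 mice stood apart in ways that bear on these genes. Healthy mice Hlth_1798 and Hlth_1807 lay nearer the vehicle group over the brighter genes, and vehicle mice Diet_Veh_low_794 and Diet_Veh_low_1819 nearer the healthy group. These 4 were picked on measured values that include Apoa4 and Apoc2, so a comparison without them is a description of the remaining mice, not independent evidence. Separately, Xist, the RNA that coats the inactive X chromosome of female cells, was at 10.95 to 11.21 (log2 intensity) in aspirin/clopidogrel mice 58, 61, 63 and 64 and at 4.55 to 5.03 in the other 26 mice. The Y-linked genes ran the opposite way. Eif2s3y was at 4.14 to 5.21 in those 4 mice and 8.37 to 9.14 in the other 26, Kdm5d at 4.43 to 4.95 against 5.97 to 6.74, and Uty at 4.41 to 4.75 against 5.28 to 6.26.

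Differences below are of log2 intensity, where 1 unit is a doubling of the deposited intensity. They come from 1 limma fit of 5 group means to all genes, with p-values adjusted over 17097 genes by the Benjamini-Hochberg method and a threshold of 0.05. Nothing in the labels says how animals were housed or processed together, so p-values measure only the spread between these mice. The number of arrays limits the precision.

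Across the 5 main comparisons, 1 of 9 genes passed in 1 comparison: Tm6sf2 was higher with aspirin and clopidogrel than with vehicle. In the diet comparison, vehicle against healthy livers, 0 of 9 passed, against 2 of all genes called (0.0117%). There, 1 of 9 had an unadjusted p under 0.05, against 6.73% of all genes. None of the 9 passed between vehicle livers with and without HCC, where 0.0877% of all genes were called. An unadjusted p under 0.05 was found for 2 of 9 there, against 8.87% of all genes. For sulindac against vehicle, 0 passed against 0.199% of all genes, and 0 had an unadjusted p under 0.05, against 10.4%. For aspirin/clopidogrel against vehicle, 1 of 9 passed against 1.96% of all genes, and 2 had an unadjusted p under 0.05, against 14.6%. Against sulindac, 0 passed where 0.877% of all genes did, and 1 had an unadjusted p under 0.05, against 10.8%. The median difference of the 9 genes lay between -0.07 and 0.01 in the 5 comparisons. In the test of any difference among the 5 groups, Tm6sf2 alone passed (adjusted p = 0.0432) where 3.97% of all genes did.

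**Figure D1:**
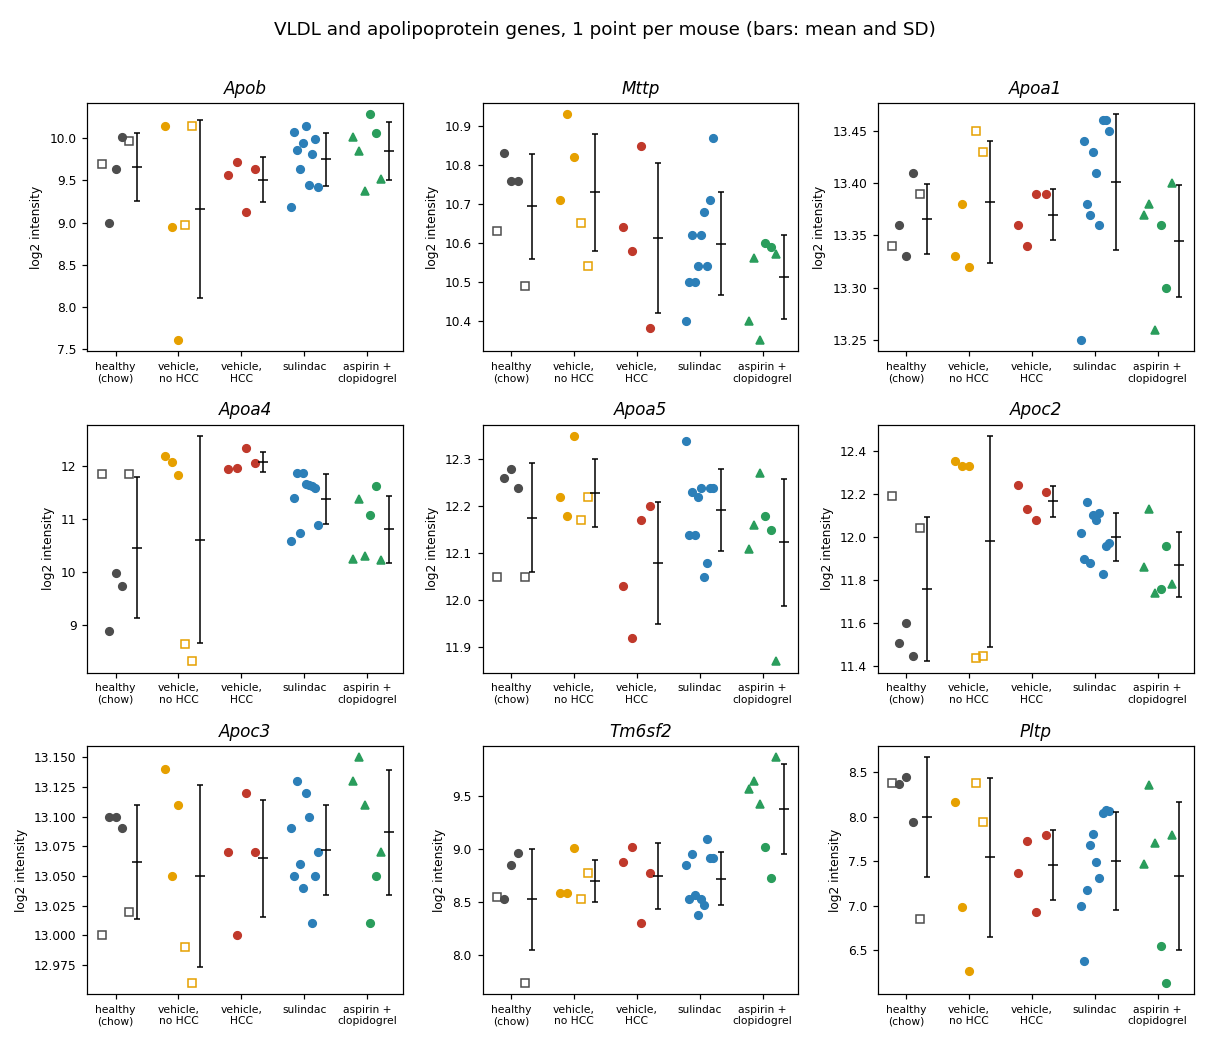
Log2 intensity (y axis, a separate scale per gene) of the 9 genes in each mouse by label group (x axis), with the group mean and SD as a bar. Open squares are healthy mice Hlth_1798 and Hlth_1807 and vehicle mice Diet_Veh_low_794 and Diet_Veh_low_1819, and triangles are the 4 mice with high Xist. Apoa4 spans 8.32 to 12.33 with the open squares at the far end of their groups, whereas Apoa1 spans only 13.25 to 13.46.

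**Figure D2:**
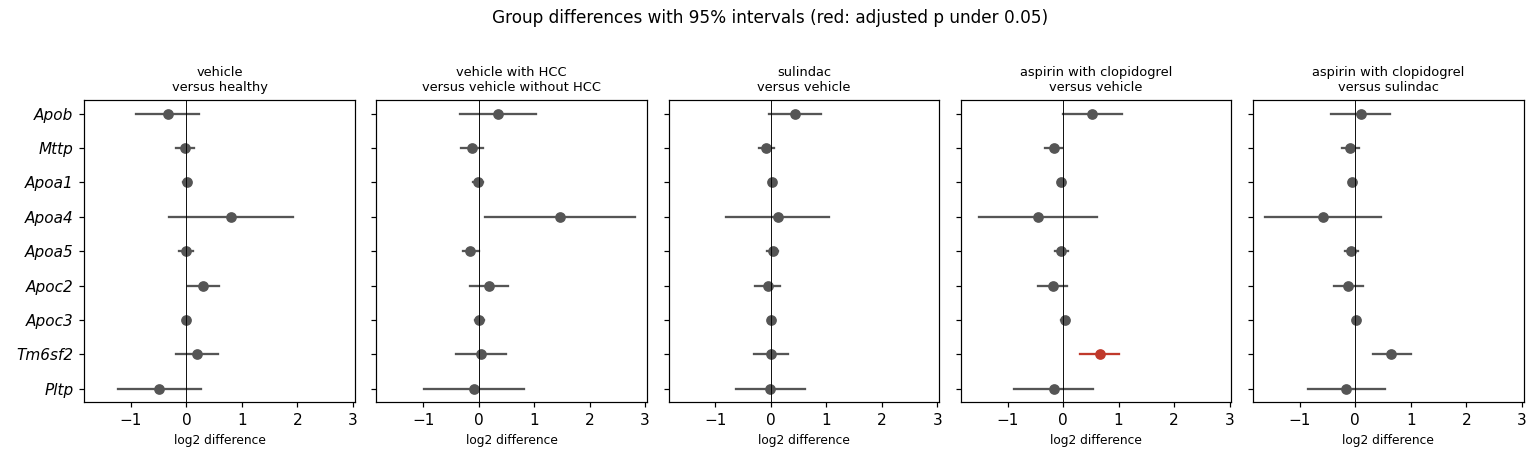
Difference in log2 intensity (x axis, shared by the panels) for each of the 9 genes in the 5 main comparisons, with 95% intervals from the limma fit. Red marks an adjusted p under 0.05, which only Tm6sf2 reached, at 0.66 for aspirin/clopidogrel against vehicle.

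Among the genes of particle assembly, Apob encodes the structural protein of VLDL. It was at 9.69, 9.0, 9.63, 10.01 and 9.97 in the healthy mice, and at 10.14, 8.95, 7.61, 8.97 and 10.14 in vehicle mice without HCC. Vehicle mice with HCC had 9.56, 9.72, 9.12 and 9.63, aspirin/clopidogrel mice 10.01, 9.85, 9.38, 10.28, 10.06 and 9.52, and sulindac mice ran from 9.18 through a median of 9.83 to 10.14. The groups overlapped, and the lowest value belonged to vehicle mouse Diet_Veh_low_2091, at 7.61. Apob differed by 0.53 (SE 0.263) between aspirin/clopidogrel and vehicle (adjusted p = 0.348) and by 0.43 (SE 0.229) between sulindac and vehicle (adjusted p = 0.525). Against healthy mice the vehicle difference was -0.34, with a 95% interval of -0.91 to 0.23. Without mouse Diet_Veh_low_2091 these 3 differences were 0.32, 0.22 and -0.13. Apob varied more among mice of 1 group (SD 0.52) than 94.4% of the brighter genes, those at or above the median mean, did.

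The order of group means for Apob was aspirin/clopidogrel (9.85 ± 0.34, SD, n = 6), sulindac (9.75 ± 0.32, n = 10), healthy (9.66 ± 0.40, n = 5), vehicle with HCC (9.51 ± 0.27, n = 4) and vehicle without HCC (9.16 ± 1.05, n = 5). No neighbours in that order differed beyond their spread. Over the 30 mice, the 3 genes whose pattern was most like that of Apob were Prrc2c (Pearson r 0.839), Pdcd6ip (0.838) and Ubn1 (0.822), chosen from 8548 genes at or above the median mean. These correlations describe mice that share groups, and the 3 genes were picked for them.

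Mttp encodes the lipid transfer subunit that loads apolipoprotein B. Its probe set ranged from 10.35 in aspirin/clopidogrel mouse 58 to 10.93 in vehicle mouse Diet_Veh_low_1825. Healthy mice ran from 10.49 to 10.83, vehicle mice without HCC from 10.54 to 10.93, vehicle mice with HCC from 10.38 to 10.85, sulindac mice from 10.40 to 10.87 and aspirin/clopidogrel mice from 10.35 to 10.60. All 5 groups overlapped. The difference between aspirin/clopidogrel and vehicle was -0.17 (SE 0.0731), at an unadjusted p of 0.028 and an adjusted p of 0.265. A second Mttp probe set gave -0.19 (adjusted p = 0.205). Against healthy livers, the aspirin/clopidogrel difference was -0.19 (SE 0.084, adjusted p = 0.279), and -0.27 (0.0909) for the second probe set. With array weights, described below, the first probe set gave -0.26 (0.0368) there. The diet difference was -0.02, with an interval of -0.18 to 0.14. Group means ran from 10.73 ± 0.15 in vehicle livers without HCC to 10.51 ± 0.11 with aspirin and clopidogrel, with healthy, vehicle with HCC and sulindac between them in that order, and no neighbours differed beyond their spread.

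Tm6sf2 encodes a membrane protein of the endoplasmic reticulum and Golgi that is needed for full lipidation of VLDL. It was at 9.57, 9.65, 9.43 and 9.87 in aspirin/clopidogrel mice 61, 64, 58 and 63, and at 9.02 and 8.73 in mice 60 and 62 of that group. Vehicle mice without HCC had 8.59, 8.59, 9.01, 8.53 and 8.78, and vehicle mice with HCC had 8.88, 9.02, 8.30 and 8.78. Healthy mice had 8.55, 8.53, 8.85, 8.97 and 7.74, and sulindac mice ran from 8.38 through 8.71 to 9.10. The 4 high values are the 4 mice with high Xist, and none of the 24 mice outside the aspirin/clopidogrel group exceeded 9.10.

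With all mice, Tm6sf2 was 0.66 (SE 0.171, 1.58-fold) higher with aspirin and clopidogrel than with vehicle (9.38 ± 0.43, n = 6, against 8.72 ± 0.24, n = 9, adjusted p = 0.0397). It was 0.85 (SE 0.196, 1.80-fold) higher than in healthy livers (adjusted p = 0.0145, background 2.77%). The difference from sulindac was 0.65 (SE 0.168, adjusted p = 0.0545), and it passed on leaving out any 1 of Hlth_1807, Diet_Veh_high_1831, sulindac mouse 17 and aspirin/clopidogrel mice 60 and 62 (0.0113 to 0.0465). It passed in only these 5 of 30 runs with 1 mouse left out, where the adjusted p reached 0.153. Without the 4 mice with high Xist, the difference from vehicle was 0.15 (SE 0.229, adjusted p = 0.923) with 2 aspirin/clopidogrel mice left, and the share of all genes called fell to 0.0409%. Against sulindac, 0 of the 9 genes passed without those 4 mice. With Xist as a covariate the difference from vehicle was also 0.15 (adjusted p = 0.916). These 2 alternatives were chosen after the data had been seen. Because high Xist occurred in the aspirin/clopidogrel group only, the covariate is estimated within that group from 4 mice against 2.

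The Tm6sf2 call against vehicle was also lost when the fit held just the compared groups (adjusted p = 0.0847), without vehicle mice Diet_Veh_high_1831 and Diet_Veh_high_2088 together (0.0807), against vehicle mice without HCC alone (0.0852) or with HCC alone (0.148), and on leaving out any 1 of vehicle mice Diet_Veh_low_1810, Diet_Veh_low_1825, Diet_Veh_low_794 and Diet_Veh_high_1831 or aspirin/clopidogrel mice 58, 61, 63 and 64 (0.0586 to 0.122). The call against healthy livers was lost without healthy mouse Hlth_1807 (0.0535) and, like the other, without the high-Xist mice (0.825). It was also lost without the 4 mice nearer the other group (0.10) and when the fit held just the compared groups (0.179). In the order of group means, aspirin/clopidogrel was followed by vehicle with HCC at 8.74, sulindac at 8.72, vehicle without HCC at 8.70 and healthy at 8.53, and no neighbours in that order passed the threshold (0.148 between the first pair).

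**Figure D3:**
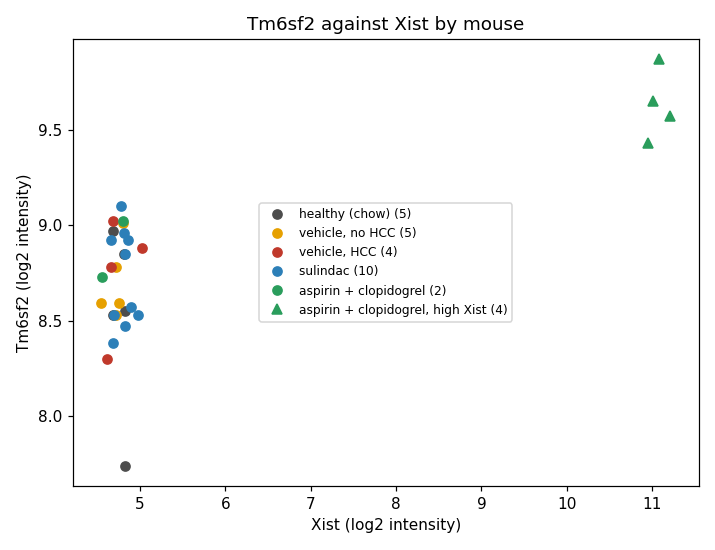
Tm6sf2 (y axis) against Xist (x axis), both as log2 intensity, with 1 point per mouse coloured by label group. Triangles at the upper right are aspirin/clopidogrel mice 58, 61, 63 and 64, and the other 2 mice of that group lie among the remaining 24, at 9.02 and 8.73.

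The 3 genes most like Tm6sf2 over the 30 mice were Rdh16f2 (r 0.875), Abca3 (0.843) and Sigirr (0.832). They shared the split within the aspirin/clopidogrel group. Rdh16f2, a retinol dehydrogenase family member, was at 11.19 to 11.41 in the 4 high-Xist mice, 10.12 to 10.77 in the other 2 and 9.14 to 10.67 in the remaining 24. Abca3 was at 9.42 to 9.58, 8.57 to 8.62 and 7.65 to 9.05 in the same order. Over the 26 mice with low Xist the correlations with Tm6sf2 were 0.736 for Rdh16f2, 0.656 for Abca3 and 0.58 for Sigirr. Macrophage and endothelial markers moved with the same split: the mean log2 intensity of 10 macrophage markers was 8.24 to 8.76 in the 4 mice and 7.26 to 7.79 in the other 2, and that of 7 endothelial markers 7.37 to 7.51 and 6.94 to 7.13. Hepatocyte markers were at 12.77 to 12.86 and 12.70 to 12.72, and lymphocyte markers at 5.27 to 5.39 and 5.04 to 5.11. Erythroid markers went the other way (8.18 to 8.69 and 8.73 to 8.87), and stellate cell markers overlapped (7.22 to 7.68 and 7.24 to 7.30). In sulindac mice, with Tm6sf2 at 8.38 to 9.10, macrophage markers were at 7.65 to 8.89 and endothelial markers at 7.17 to 7.56. The part of these markers in the Tm6sf2 difference was not tested.

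Among the exchangeable apolipoproteins, Apoa4 and Apoc2 varied together from mouse to mouse. Apoa4 encodes an apolipoprotein of triglyceride-rich particles and of high density lipoprotein, and Apoc2 encodes the cofactor that lipoprotein lipase requires. Their correlation over 30 mice was 0.898 (Spearman's rho 0.876) and 0.906 after group means were removed, the highest between any pair of the 9 genes. The largest of the other correlations by size were -0.408 over all mice, for Apob with Mttp, and 0.494 within groups, for Tm6sf2 with Pltp. These values describe mice that share groups. Healthy mice and vehicle mice without HCC, which include the 4 mice nearer the other group, had the widest spread. The SD of Apoa4 was 1.33 and 1.95 there and 0.18 to 0.63 in the other groups. For Apoc2 it was 0.34 and 0.49 against 0.07 to 0.15. The correlation of Apoa4 with Apoc2 without those 4 mice was not computed. Apoa4 lies on chromosome 9 in a cluster of 43.3 kb with Apoa1, Apoc3 and Apoa5, whereas Apoc2 lies on chromosome 7.

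The 250 bases before the start of Apoa4 and of Apoc2 are shown because these genes varied together, and those of Apoa1 because it neighbours Apoa4 and did not. They are RefSeq sequence of build GRCm38.p6, read 5′ to 3′ on the strand of the gene. Capitals mark CAAAGNNCA, the core of one direct-repeat form of nuclear receptor site, and TGACG, the core of a cyclic AMP response element, both searched on both strands. These letters were chosen after the sequences had been seen.
Apoa4, chr9:46240594-46240843, plus strand: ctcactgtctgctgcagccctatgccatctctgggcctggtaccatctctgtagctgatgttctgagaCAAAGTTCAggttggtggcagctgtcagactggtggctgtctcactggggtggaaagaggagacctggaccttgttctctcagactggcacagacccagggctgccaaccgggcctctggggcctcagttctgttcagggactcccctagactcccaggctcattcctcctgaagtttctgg
Apoc2, chr7:19677942-19678191, minus strand: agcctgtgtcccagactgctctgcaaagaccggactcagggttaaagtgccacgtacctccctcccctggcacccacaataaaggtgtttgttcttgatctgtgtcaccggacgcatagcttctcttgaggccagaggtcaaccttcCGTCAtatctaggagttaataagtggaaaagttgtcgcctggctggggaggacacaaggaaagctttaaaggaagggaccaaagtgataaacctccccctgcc
Apoa1, chr9:46228380-46228629, plus strand: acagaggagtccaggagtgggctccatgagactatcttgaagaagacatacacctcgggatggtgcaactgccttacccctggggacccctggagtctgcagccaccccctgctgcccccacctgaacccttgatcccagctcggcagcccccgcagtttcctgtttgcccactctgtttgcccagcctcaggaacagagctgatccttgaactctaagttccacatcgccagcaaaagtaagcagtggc
The Apoa4 window holds 1 match to CAAAGNNCA, 174 bases before the start, and the Apoc2 window holds 1 match to TGACG on the reverse strand, 99 bases before the start. Neither window holds both, and the Apoa1 window holds neither. Of 27025 promoters of the same length, 5.47% hold CAAAGNNCA and 17.9% hold TGACG. A match is a description of letters and not a bound site.

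Apoa4 was at 11.85, 8.89, 9.98, 9.74 and 11.84 in healthy mice Hlth_1798, Hlth_1804, Hlth_1965, Hlth_1968 and Hlth_1807. Vehicle mice without HCC had 12.19, 12.08, 11.82, 8.64 and 8.32, the last 2 in mice Diet_Veh_low_794 and Diet_Veh_low_1819, and vehicle mice with HCC had 11.93, 11.96, 12.33 and 12.05. Sulindac mice ran from 10.58 through 11.60 to 11.87, and aspirin/clopidogrel mice had 10.24, 11.38, 10.30, 11.08, 11.62 and 10.22. So healthy mice Hlth_1798 and Hlth_1807 sat at the low end of the other vehicle mice and also within the range of the sulindac mice. Vehicle mice Diet_Veh_low_794 and Diet_Veh_low_1819 sat below every other mouse, and the treated mice lay between 10.22 and 11.87.

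Apoc2 showed the same 4 mice. It was at 12.19, 11.51, 11.60, 11.45 and 12.04 in the healthy mice, at 12.35, 12.33, 12.33, 11.44 and 11.45 in vehicle mice without HCC, and at 12.24, 12.13, 12.08 and 12.21 in those with HCC. Sulindac mice ran from 11.83 through 12 to 12.16 and aspirin/clopidogrel mice from 11.74 to 12.13.

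**Figure D4:**
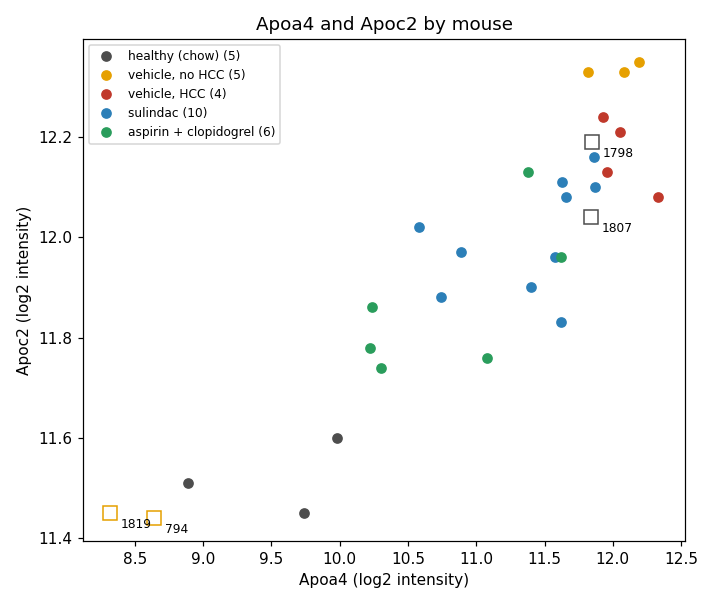
Apoc2 (y axis) against Apoa4 (x axis), both as log2 intensity, with 1 point per mouse coloured by label group. Open squares are the 4 mice that lay nearer the other group. Healthy mice Hlth_1798 and Hlth_1807 sit toward the upper right, beside both vehicle and sulindac mice. Vehicle mice Diet_Veh_low_794 and Diet_Veh_low_1819 sit at the lower left beside the other 3 healthy mice.

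The order of group means for Apoa4 was vehicle with HCC (12.07 ± 0.18), sulindac (11.38 ± 0.47), aspirin/clopidogrel (10.81 ± 0.63), vehicle without HCC (10.61 ± 1.95) and healthy (10.46 ± 1.33). For Apoc2 it was vehicle with HCC (12.17 ± 0.07), sulindac (12 ± 0.11), vehicle without HCC (11.98 ± 0.49), aspirin/clopidogrel (11.87 ± 0.15) and healthy (11.76 ± 0.34). No neighbours in either order passed the threshold, although the Apoa4 values of the first pair did not overlap.

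With all mice, Apoa4 differed by 0.80 between vehicle and healthy livers (SE 0.547, adjusted p = 0.873) and Apoc2 by 0.30 (SE 0.137, adjusted p = 0.708). With array weights the Apoc2 difference was 0.48 (adjusted p = 0.0386). Apoa4 was 1.46 (SE 0.658) higher in vehicle livers with HCC than without (adjusted p = 0.512), a difference that became 0.04 without the 4 mice. The 4 vehicle mice with HCC did not overlap the healthy mice in Apoa4 (difference 1.61, adjusted p = 0.447, background 0.0994%). Nor did they overlap the sulindac mice (-0.68 for sulindac against them, adjusted p = 0.892, background 0.0468%) or the aspirin/clopidogrel mice (-1.26, adjusted p = 0.408, background 0.918%). These backgrounds are shares of all genes called. The share of all genes whose groups do not overlap was not counted. None of these differences passed the threshold with all mice weighted equally. That of vehicle with HCC from healthy was 2.13 (adjusted p = 0.0398) with array weights and 2.53 (0.000103) without the 4 mice. Array weights fall with distance from the mean of the labelled group, and were lowest in Hlth_1807 and Hlth_1798 (0.34 and 0.38). Neither setting is therefore independent evidence for Apoa4 or Apoc2.

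Without the 4 mice, Apoa4 averaged 12.05 ± 0.17 in 7 vehicle mice and 9.53 ± 0.57 in 3 healthy mice, a difference of 2.52 (SE 0.311, adjusted p = 2.57e-05). Apoc2 averaged 12.24 ± 0.10 against 11.52 ± 0.08, a difference of 0.72 (SE 0.0754, adjusted p = 3.52e-06). They were 2 of 9 genes past the threshold there, against 5.61% of all genes. Sulindac livers then exceeded the 3 healthy livers by 1.85 in Apoa4 (adjusted p = 0.000301) and 0.48 in Apoc2 (0.00015), again 2 of 9 against 7.76% of all genes. Because the mice left out were picked partly on these genes, these p-values are too small by an amount that was not estimated.

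The drug comparisons also changed without the 4 mice, and the p-values of Apoa4 and Apoc2 are too small there for the same reason. Diet_Veh_low_794 and Diet_Veh_low_1819, which were left out, held the lowest vehicle values of both genes. Apoc2 was lower than vehicle by 0.24 with sulindac (log2 difference -0.24, SE 0.0539, adjusted p = 0.034), 1 of 9 genes against 0.836%. With aspirin and clopidogrel, Apoa4 stood at -1.24 against vehicle (SE 0.251, adjusted p = 0.00476) and Apoc2 at -0.37 (SE 0.0608, adjusted p = 0.00095). With Tm6sf2 these were 3 of 9 genes against 4.79%. Against the 3 healthy livers, Apoa4 was 1.27 and Apoc2 0.35 higher with aspirin and clopidogrel (adjusted p = 0.0185 and 0.00762), 2 of 9 against 5.43%. With the high-Xist mice left out too, these were 1.81 (0.0142) and 0.34 (0.0704). With all mice, the aspirin/clopidogrel differences from vehicle were -0.45 for Apoa4 (adjusted p = 0.758) and -0.19 for Apoc2 (0.535), and without only the high-Xist mice that of Apoa4 was 0.09 (0.99).

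Leaving out the 4 high-Xist mice as well left 2 aspirin/clopidogrel mice, and the same limit on p-values holds. Apoa4 then stood at -0.70 against vehicle (SE 0.311, adjusted p = 0.307) and Apoc2 at -0.38 (SE 0.0791, adjusted p = 0.0203), where 1.45% of all genes passed. Within the aspirin/clopidogrel group, Apoa4 was at 10.22 to 11.38 in the high-Xist mice and at 11.08 and 11.62 in the others, while Apoc2 averaged 11.88 and 11.86.

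Some markers of other cells differed in the same mice, and others did not. The mean log2 intensity of 9 stellate cell markers was 6.56 to 6.85 in the other 3 healthy mice, 7.60 to 8.10 in mice Hlth_1798 and Hlth_1807, 7.19 to 7.79 in the other 7 vehicle mice and 6.93 to 7.31 in mice Diet_Veh_low_794 and Diet_Veh_low_1819. The arrays of mice Hlth_1807 and Hlth_1798 had the lowest array weights, 0.34 and 0.38. These weights reflect distance from the mean of the labelled group over all genes and are not a separate measure of array quality. Hepatocyte markers were at 12.57 to 12.62 in mice Hlth_1798 and Hlth_1807 against 12.75 to 12.78 in the other healthy mice, and 6 lymphocyte markers at 5.33 to 5.51 against 4.97 to 5.05. Macrophage markers did not separate that pair (7.09 to 9.02 against 7.12 to 7.58), nor did endothelial markers (6.56 to 7.22 against 6.82 to 6.93). In the pair, 5 cholangiocyte markers were at 4.55 to 5.73 against 4.42 to 4.51, and 4 adipocyte markers at 4.87 to 5.54 against 4.67 to 4.81. Of these, 4 cholangiocyte and 3 adipocyte markers averaged below the median gene mean. Erythroid markers overlapped (7.87 to 8.41 against 8.05 to 8.45), and exocrine pancreas markers were lower (5.10 to 5.18 against 5.24 to 5.56). In Diet_Veh_low_794 and Diet_Veh_low_1819, hepatocyte markers were at 12.74 to 12.79, against 12.60 to 12.82 in the other 7 vehicle mice. Lymphocyte markers were at 5.18 to 5.30 against 5.16 to 5.48, and macrophage markers at 7.56 to 8.09 against 6.98 to 8.74. Adipocyte markers were at 4.73 to 6.35 against 4.99 to 5.48, and cholangiocyte markers at 4.46 to 4.58 against 4.40 to 4.60. The part of these markers in the Apoa4 and Apoc2 pattern was not tested. The enterocyte markers Vil1, Alpi, Cdx2 and Krt20 were near the floor in all 4 mice, as in the rest. Besides each other, Apoa4 and Apoc2 were most like Tceal8 (r 0.868 with Apoa4 and 0.857 with Apoc2), Ifi27l2b (0.852 with Apoa4) and 2010003K11Rik (0.88 with Apoc2).

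Apoa1 and Apoc3 barely varied. Apoa1 encodes the main protein of high density lipoprotein, and Apoc3 an inhibitor of lipoprotein lipase and of particle uptake. Apoa1 lay between 13.25 and 13.46 in all 30 mice, with group means from 13.34 ± 0.05 (aspirin/clopidogrel) to 13.40 ± 0.07 (sulindac). Apoc3 lay between 12.96 and 13.15, with group means from 13.05 ± 0.08 (vehicle without HCC) to 13.09 ± 0.05 (aspirin/clopidogrel). Their diet differences were 0.01 (interval -0.06 to 0.08) and -0.01 (interval -0.07 to 0.06). These probe sets stood 0.24 and 0.55 log2 units below the brightest value of their arrays, a range in which the spread between mice was small for most genes. The median SD within groups was 0.05 for 15 genes with a mean between 13 and 14, 0.11 for 441 genes between 11 and 12, and 0.21 for 2376 genes between 7 and 9. Whether intensity still followed transcript level at the top of the scale was not tested.

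Apoa5 encodes an activator of plasma triglyceride clearance made almost only by liver. Healthy mice had 12.05, 12.26, 12.28, 12.24 and 12.05, vehicle mice without HCC 12.22, 12.18, 12.35, 12.17 and 12.22, and vehicle mice with HCC 12.03, 11.92, 12.17 and 12.20. Sulindac mice ran from 12.05 through 12.23 to 12.34 and aspirin/clopidogrel mice from 11.87 to 12.27. The groups overlapped. Vehicle livers with HCC differed by -0.15 (SE 0.0713) from those without (adjusted p = 0.555), and the other main differences lay between -0.07 and 0.03. Its most similar genes were Mtfr1l (r 0.784), Plpbp (0.776) and Sap30l (0.758). Mttp was most like Mcts2 (0.774), Irak1 (0.723) and Mmgt1 (0.718). Apoa1 was most like Mn1 (0.719), Sgk2 (0.677) and Pnpla7 (0.639), and Apoc3 most like Sepsecs (0.743), Sbk1 (0.734) and Bhmt2 (0.733). For Pltp they were Rfxank (0.666), Tmem51 (0.63) and Rdh11 (0.623).

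Pltp encodes the plasma phospholipid transfer protein, which remodels lipoproteins and also acts in VLDL lipidation. Healthy mice had 8.38, 8.37, 8.45, 7.94 and 6.85, vehicle mice without HCC 8.17, 6.98, 6.26, 8.38 and 7.94, and vehicle mice with HCC 7.37, 7.73, 6.93 and 7.80. Sulindac mice ran from 6.38 through 7.58 to 8.08, and aspirin/clopidogrel mice had 7.47, 8.36, 7.70, 6.54, 6.13 and 7.80. Healthy mouse Hlth_1807 and vehicle mouse Diet_Veh_low_2091 were the lowest of their groups, and in the aspirin/clopidogrel group the low values were mice 60 and 62, the 2 with low Xist. The diet difference was -0.49 (SE 0.366, adjusted p = 0.893), and -0.78 without Hlth_1807. Against vehicle, aspirin and clopidogrel gave -0.17 (SE 0.346, adjusted p = 0.875), which became -1.17 (SE 0.467, adjusted p = 0.539) without the high-Xist mice. It was -0.38 without mouse 64 alone and 0.07 without mouse 62 alone, which turns its sign. Pltp varied more within groups (SD 0.69) than 97.3% of the brighter genes. Group means fell in the order healthy (8 ± 0.67), vehicle without HCC (7.55 ± 0.90), sulindac (7.50 ± 0.55), vehicle with HCC (7.46 ± 0.40) and aspirin/clopidogrel (7.33 ± 0.84), with no neighbours apart beyond their spread.

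Other genes of the pathway were taken from 4 lists. Of 8 other apolipoprotein genes, all measured, 0 passed in any main comparison, with 0 to 2 at an unadjusted p under 0.05 in each. The shares of all genes there were 0.0117% to 1.96% past the threshold and 6.73% to 14.6% at an unadjusted p under 0.05. Apof, which encodes an inhibitor of cholesteryl ester transfer, passed the test across groups (adjusted p = 0.0301): it averaged 12.25 ± 0.07 in healthy livers, 12.41 ± 0.06 with sulindac and 12.46 ± 0.11 with aspirin and clopidogrel. It was higher than healthy by 0.16 with sulindac (adjusted p = 0.0431, background 2.98%) and 0.21 with aspirin and clopidogrel (0.0153). Without the 4 mice nearer the other group neither passed (0.154 and 0.0696), and the second also lost its call without the high-Xist mice (0.864). Apom, a carrier of sphingosine-1-phosphate on lipoproteins, averaged 11.82 ± 0.15 with aspirin and clopidogrel and 11.30 ± 0.40 in vehicle livers (difference 0.52, SE 0.144, adjusted p = 0.0555). Apoh, a phospholipid-binding plasma protein, had group means between 12.83 and 12.91.

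Of 25 genes of assembly and export from the endoplasmic reticulum, 22 were measured. Vmp1, which encodes an endoplasmic reticulum protein needed for lipoprotein release, fell with aspirin and clopidogrel against vehicle (-0.35, SE 0.0947, adjusted p = 0.0497). That was 1 of 22 genes, against 1.96% of all genes, with 0 in the other direction, and the median of the list was -0.05. Without the high-Xist mice the Vmp1 difference was -0.08 (adjusted p = 0.931), and without the 4 mice nearer the other group -0.34 (0.0619). Ces1d, a carboxylesterase that mobilises stored triglyceride for VLDL, passed across groups (adjusted p = 0.00259). It averaged 12.09 ± 0.31 in healthy livers, 12.15 ± 0.11 in vehicle livers without HCC, 11.46 ± 0.16 with HCC, 11.54 ± 0.27 with sulindac and 11.68 ± 0.12 with aspirin and clopidogrel. Vehicle livers with HCC did not overlap those without (-0.69, SE 0.145, adjusted p = 0.0552), but the share of all genes without overlap was not counted. Sulindac livers were lower than healthy ones (-0.55, SE 0.118, adjusted p = 0.0087). Klhl12, an adaptor that enlarges export vesicles, had group means between 6.90 and 7.18 (adjusted p across groups = 0.0991).

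Of 19 genes of plasma lipolysis and particle uptake, 12 were measured. Vldlr, the VLDL receptor, was higher with aspirin and clopidogrel than with vehicle (5.13 ± 0.25 against 4.70 ± 0.10, difference 0.43, SE 0.0845, adjusted p = 0.00675) and than with sulindac (0.37, adjusted p = 0.0299), 1 of 12 genes each time, against 1.96% and 0.877% of all genes. It lies close to the median gene mean of 4.9. Without the high-Xist mice the difference from vehicle was 0.26 (SE 0.101, adjusted p = 0.52) and that from sulindac 0.19 (adjusted p = 0.535). Angptl8, an insulin-responsive regulator of lipoprotein lipase, passed across groups (adjusted p = 0.0392), with means of 10.12 ± 0.82 in healthy, 10.67 ± 0.47 in vehicle without HCC, 8.94 ± 0.40 in vehicle with HCC, 9.03 ± 0.70 in sulindac and 9.51 ± 1.01 in aspirin/clopidogrel livers. Gpihbp1, the endothelial anchor of lipoprotein lipase, was 1.05 higher with sulindac than in healthy livers (SE 0.278, adjusted p = 0.0345, or 0.0519 without the high-Xist mice). Endothelial markers moved with it: the mean log2 intensity of 7 was 6.56 to 7.22 in healthy and 7.17 to 7.56 in sulindac mice, and their part in the Gpihbp1 difference was not tested.

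Of 26 regulators of these genes, 22 were measured and 0 passed in any main comparison, with 2 to 4 at an unadjusted p under 0.05 in each. Of all genes, 0.0117% to 1.96% passed in those comparisons, and 6.73% to 14.6% had an unadjusted p under 0.05. Rora, a nuclear receptor of the circadian and lipid programme, passed across groups (adjusted p = 0.0185). It averaged 9.62 ± 0.10 in vehicle livers without HCC and 9.18 ± 0.15 in those with it (-0.44, SE 0.0997, adjusted p = 0.0996). These 2 groups did not overlap, and here too the share of all genes without overlap was not counted. Mlxipl, the carbohydrate response factor, was lower with sulindac than in healthy livers (-0.36, SE 0.0915, adjusted p = 0.0263). Ppargc1b, a coactivator of lipid synthesis and secretion genes, averaged 6.93 ± 0.43 with sulindac and 6.31 to 6.44 in the other groups (adjusted p across groups = 0.171). The clock output gene Dbp also varied. In healthy and vehicle mice it was at most 6.19, except 10.00 and 10.20 in vehicle mice Diet_Veh_high_1831 and Diet_Veh_high_2088, both with HCC. It ran from 5.29 to 10.20 in the sulindac and from 5.30 to 10.20 in the aspirin/clopidogrel mice. Rora was at 9.35 and 8.99 in Diet_Veh_high_1831 and Diet_Veh_high_2088. In Diet_Veh_high_798 and Diet_Veh_high_1770, also with HCC, Dbp was at 4.60 and 4.37 and Rora at 9.19 and 9.19. The part of Dbp in these differences was not tested. Some erythroid markers differed with the drugs too, but they did not move together. Of 7 listed, 3 were measured. With sulindac against vehicle, 1 of 3 passed, upward, against 0.199% of all genes. With aspirin and clopidogrel against vehicle, 1 passed upward and 1 downward, against 1.96% of all genes. Mean Hba-a1 was 11.54 in vehicle and 12.75 in aspirin/clopidogrel livers, Slc4a1 4.53 and 4.76, and Alas2 9.08 and 7.96. The part of the erythroid markers was not tested either.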

How the data were processed

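Per the submitters' processing notes and the series design text, the authors normalized the arrays by RMA with quantile normalization, and the deposited values are intensities on a linear scale. RMA version and chip definition are not given in the sources used here. Of 45141 probe sets, 28898 carried 1 symbol in the platform annotation, which can be old, 551 several and 15692 none. The probe set with the highest mean represented each of 17097 genes. The log2 of the deposited intensity was taken here, with no filter. limma 3.58.1 in R 4.3.3 fitted 5 group means to 30 arrays (25 residual and 2.37 prior degrees of freedom). Drug groups were compared with the mean of all 9 vehicle mice. The series text counts 4 vehicle mice, whereas the labels give 9, which were used. The procedure was tested on simulated data.

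The 9 genes and all lists were chosen with earlier results of these data known. The text names every one of the 9, the pathway genes that passed a main comparison plus the 3 with the smallest p across groups in each list, the 3 genes most like each of the 9, and Dbp. Xist and the Y-linked genes were added after their values were seen. Alternatives covered the groups fitted, variance settings, array weights, scaling, probe sets, an offset of 16, covariates and mice left out. Promoters were matched for 7 of 9 genes. Markers are from fixed lists.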

Additional observations from a re-analysis of the deposited data

Results flagged for a closer look

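Of 45 groups of 4 to 10 mice tested for a single value far from the rest, 2 were singled out, where chance gives about 1 in 20. Apoa1 was lowest in sulindac mouse 16, at 13.25, with the next sulindac mouse at 13.36. Apoa5 was highest in vehicle mouse Diet_Veh_low_2091 without HCC, at 12.35, with the next at 12.22. Mouse Diet_Veh_low_2091 also had the lowest Apob of all mice, at 7.61.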

How the results depend on the processing

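Counts below are of the 9 genes, then of all genes, past an adjusted p of 0.05. Leaving out each of 30 mice gave 0 of the 9 for vehicle against healthy and 1 to 36 of all genes (1 without Hlth_1968, 36 without Hlth_1798), 0 and 0 to 33 for HCC (0 without Diet_Veh_high_2088, 33 without Diet_Veh_high_798), 0 and 19 to 148 for sulindac (without sulindac mouse 23 and without Diet_Veh_high_2088), 0 to 1 and 123 to 571 for aspirin/clopidogrel against vehicle (without mouse 58 and without mouse 62), 0 to 1 and 54 to 270 against sulindac (without mouse 61 and without mouse 62), 0 to 1 for aspirin/clopidogrel against healthy, and 0 to 1 and 475 to 884 across groups. When each fit held just the compared groups, all-gene counts were 0 for vehicle against healthy (main 2), 0 for HCC (main 15), 91 for sulindac (main 34), 111 for aspirin/clopidogrel against vehicle (main 335) and 239 against sulindac (main 150), and the 9 genes gave 0 against vehicle, 1 against sulindac and 0 against healthy. With array weights all-gene counts were 375, 206, 613 and 407 (vehicle against healthy, sulindac, and aspirin/clopidogrel against vehicle and sulindac) and 1930 across groups (main 678), and the 9 genes gave 1 for vehicle against healthy, 2 for vehicle with HCC, sulindac and aspirin/clopidogrel each against healthy, and 1 for aspirin/clopidogrel against sulindac. For aspirin/clopidogrel against healthy, the call that array weights added was Mttp (-0.26, adjusted p = 0.0368). Without the 4 mice nearer the other group, all-gene counts were 959, 143, 819 and 343 in that order and 1788 across groups; the 9 genes gave 2 in each comparison with healthy livers (either vehicle group or both, sulindac, aspirin/clopidogrel), 1 for sulindac and 3 for aspirin/clopidogrel against vehicle, 1 against sulindac and 3 across groups. Without the 4 high-Xist mice, all-gene counts were 4, 70, 7 and 51 and 446 across groups, and with Xist as a covariate 103 for sulindac, 8 for aspirin/clopidogrel against vehicle and 60 against sulindac; under both, the 9 genes gave 0 for aspirin/clopidogrel against vehicle and healthy and 0 across groups. Without both sets of 4, all-gene counts were 1118 for vehicle against healthy, 196 for sulindac and 1662 across groups, and the 9 genes gave 2 for both vehicle groups, alone or pooled, and for sulindac against healthy, 1 for sulindac against vehicle and 2 across groups. Without vehicle mice Diet_Veh_high_1831 and Diet_Veh_high_2088, all-gene counts were 0, 0 and 261 (vehicle against healthy, HCC, sulindac), and the 9 genes gave 0 for aspirin/clopidogrel against vehicle and 1 against sulindac. With Dbp as a covariate all-gene counts were 7, 1 and 17 in the same order and 428 across groups, and the 9 genes gave 2 for aspirin/clopidogrel against healthy and 2 across groups. The call that the Dbp covariate added for aspirin/clopidogrel against healthy was Apoa5 (-0.18, adjusted p = 0.0437). Quantile normalization again and the mean of all probe sets gave 5 for vehicle against healthy, and genes at or above the median mean gave 1 there, 88 for sulindac and 1 of the 9 for aspirin/clopidogrel against sulindac, as did an intensity trend. Median centring gave 52 for sulindac. Against vehicle without HCC alone sulindac gave 168, and against vehicle with HCC alone 8; aspirin/clopidogrel gave 157 against vehicle with HCC alone, with 0 of the 9 against either. The 3 settings with Xist were added after the data were seen. The causes of these shifts were not tested. No paired analysis was possible because no animal number is shared between groups. Tm6sf2 kept its sign, higher with aspirin/clopidogrel than in vehicle and healthy livers, in each alternative run, but not its size. Without both sets of 4 the limma differences were 0.13 against vehicle (adjusted p = 0.836) and 0.09 against healthy (0.964). Apoa4 changed sign in comparisons where it passed without the 4 mice: against healthy livers it was -0.24 for vehicle without HCC and -0.04 for aspirin/clopidogrel without Hlth_1804, and for aspirin/clopidogrel against vehicle it was 0.09 without the high-Xist mice and 0.20 against vehicle without HCC alone. Apoc2 for sulindac was 0.02 against vehicle without HCC alone.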
